A study of Mus musculus with 21 samples.

Results

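The genes of oxidative phosphorylation were followed through mouse preimplantation development, from sperm and oocyte to blastocyst. They were taken as the nuclear protein-coding genes whose symbols begin with Nduf, Uqcr, Sdha, Sdhb, Sdhc, Sdhd, Atp5 or Cox and a digit, together with Cyc1, Cycs and Cyct. In the GENCODE vM21 annotation of the mm10 genome 110 gene records with 109 symbols fitted this rule. Of these, 104 had at least 1 transcript in the merged long-read transcriptome of the study, out of 10922 annotated genes that had one. The 6 records without a transcript were Cox15, Cox6a2, Cox8b, Ndufa4l2, Ndufaf5 and a second record of Atp5o, and they have no value here. The symbols also took in 23 genes grouped here as assembly factors, and 21 of these had a transcript. Assembly factors are for the most part proteins that help to build the complexes without remaining part of them. The group as used here includes Cox7a2l and Atp5s. The other 83 genes with a transcript encode subunits of complexes I to V or cytochrome c.

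Oxidative phosphorylation takes place at the inner mitochondrial membrane. Complexes I and II pass electrons from NADH and succinate to ubiquinone, complex III hands them to cytochrome c, complex IV passes them to oxygen, and complex V, the ATP synthase, uses the resulting proton gradient to make ATP. Most subunits are nuclear-encoded, while a few are encoded in mitochondrial DNA. The oocyte supplies the mitochondria of the early embryo, and several subunits have a second gene copy that is used mainly in testis, heart or muscle.

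Short-read RNA sequencing was done on 14 libraries, 2 from each of 7 stages. Sperm came from the epididymis of DBA/2J males, and metaphase II oocytes came from superovulated C57/BL6J females aged 3 to 5 weeks, taken 20 h after injection of human chorionic gonadotropin (hCG). Embryos from such females mated with DBA/2J males were cultured and lysed at the 1-cell (24 to 26 h after hCG), 2-cell (46 to 48 h), 4-cell (54 to 58 h), 8-cell (68 to 70 h) and blastocyst (94 to 96 h) stages. Each library came from a pool of cells or embryos and from amplified poly(A)-primed cDNA. The paper states that 2 batches of cDNA of a stage were mixed for long-read sequencing, giving 1 long-read pool per stage. A small part of the cDNA of each batch went to the short-read libraries. Nothing in the labels ties the 2 libraries of a stage to separate litters, so the p-values measure only the spread between these libraries. The level of a gene is its summed TPM (the transcript abundance unit that Salmon gives), which is scaled to transcript length and to a fixed total in each library and holds no sequencing depth. TPM therefore gives a share of the RNA in a library and not an amount per embryo, and in these bulk pools fewer cells of a type and less RNA per cell cannot be told apart.

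The libraries differed in how well replicates matched. Over 10740 genes the median standard deviation of log2(TPM + 1) between the 2 libraries of a stage ran from 0.176 at the 4-cell stage to 0.977 at the 2-cell stage. Its value was 0.823 in sperm and 0.611 in blastocysts. The 8 sperm markers summed to 17500 and 21300 TPM in the sperm libraries, but 6 leukocyte markers summed there to 10300 and 2010 TPM, 6 epididymal markers to 2080 and 357 TPM, and 4 red blood cell markers to 2150 and 4790 TPM. Over the other 12 libraries the highest sums of these 3 lists were 23.6, 2.99 and 370.0 TPM. The oocyte markers summed to 5210 and 16700 TPM in oocytes. The blastocyst libraries differed in the same way, with 10400 and 37700 TPM for the blastocyst markers. In the 2-cell libraries the oocyte markers still summed to 116 and 1330 TPM. The 7 of 8 markers of the 2-cell embryo with a transcript summed to 1170 and 3900 TPM at the 2-cell stage, against 12600 and 3850 TPM in oocytes. All 7 were at 1 TPM or more in each 2-cell library, but only 1 was in each oocyte library.

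Transcripts of oxidative phosphorylation genes took a growing share of the RNA as development went on. Their summed level was 5739.95 and 10325.9 TPM in the oocyte libraries, 11075.8 and 10428.3 TPM at the 1-cell stage, and 15173.1 and 13291.6 TPM at the 2-cell stage. It reached 28209.1 and 27478.3 TPM at the 4-cell stage, 44232.0 and 43452.8 TPM at the 8-cell stage, and 66653.9 and 80565.1 TPM in blastocysts. From oocyte to blastocyst every library of a stage lay above every library of the stage before it, though by little between the higher oocyte library and the lower 1-cell library. As a share of all TPM this was 0.803% in oocytes, 2.78% at the 4-cell stage and 7.36% in blastocysts. The sperm libraries held 12912.1 and 23146.3 TPM.

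The mean level in blastocysts over that in oocytes was 10.1-fold for complex I subunits, 8.12-fold for complex II, 61.3-fold for complex III, 8.09-fold for complex IV, 11.4-fold for complex V and 10.5-fold for cytochrome c. For the assembly factors it was 2.08-fold. Without the second oocyte library complex I came to 16.2-fold, complex II to 17.4-fold and complex V to 17.3-fold, and without the first oocyte library complex II came to 5.29-fold. Cytochrome c came to 3.42-fold without the first blastocyst library and to 17.5-fold without the second. Complex III started low, with its 9 subunits summing to 222 and 139 TPM in the oocyte libraries and to 285 and 181 TPM at the 1-cell stage. The same 9 genes summed to 1772 and 905 TPM at the 2-cell stage, 2745 and 2809 TPM at the 4-cell stage, 4750.22 and 4626 TPM at the 8-cell stage, and 7741 and 14408 TPM in blastocysts. Complex V was highest in the first blastocyst library at 14048 TPM, while the second library at 8651 TPM lay below both 8-cell libraries at 9724 and 9372 TPM. These ratios describe library sums and were not tested.

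**Figure D1:**
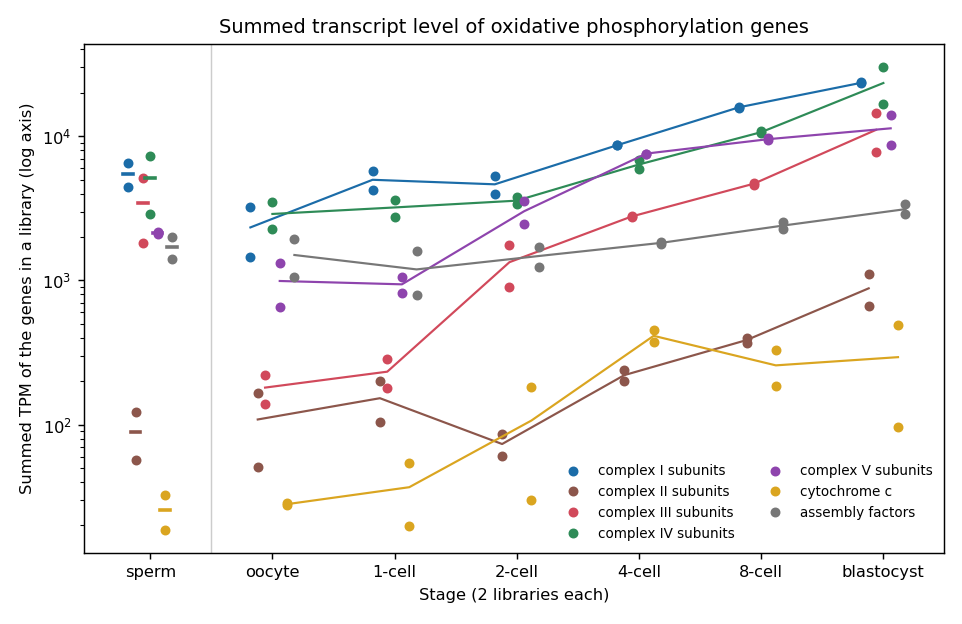
Summed TPM (log axis) of the oxidative phosphorylation genes in each of the 14 short-read libraries by stage, for each complex, for cytochrome c and for the assembly factors, with 1 point per library and a line through the mean of each stage from oocyte to blastocyst (a dash for sperm). Complex III shows the steepest course, from 222 and 139 TPM in oocytes to 7741 and 14408 TPM in blastocysts.

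Between oocyte and blastocyst, most of these genes rose. With limma on log2(TPM + 1), fitted to the 12 oocyte and embryo libraries together, 86 of 104 were called higher and 1 lower in blastocysts at an adjusted p under 0.05, where 35.4% of the 10005 genes tested were called higher and 18.0% lower. The median change was 4.42 on the log2 scale for the 104 genes and 0.82 for all genes tested. By complex, 34 of 36 complex I subunits, 2 of 4 complex II subunits, 8 of 9 complex III subunits, 11 of 16 complex IV subunits and 15 of 16 complex V subunits were called higher. Both cytochrome c genes and 14 of 21 assembly factors were also called higher. The libraries of the 2 stages did not overlap, with blastocysts higher, in 92 of the 104 genes against 48.5% of all genes, and with blastocysts lower in 3 against 26.8%. Of the 86 calls, 68 held under each alternative processing that gave a value, and after quantile normalization, which moved the median of all genes from 0.82 to 0.07, 76 genes were called higher, with a median of 3.50. That scaling turned the split over all genes from 3543 higher and 1800 lower to 2662 and 2640. How many of the calls over all genes held under each alternative was not computed, here or in the other comparisons. The 17 genes not called were Cox4i2, Cox6b2, Cox7b2, Cox8a, Cox8c and Cox18 of complex IV or its assembly, Ndufa10, Ndufab1, Ndufaf2, Ndufaf4 and Ndufaf8 of complex I or its assembly, Sdha, Sdhc, Sdhaf1 and Sdhaf4 of complex II or its assembly, Uqcrc2 and Atp5b.

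Among the 6 stages from oocyte to blastocyst, without sperm, the stage with the highest mean level was the blastocyst for 63 of the 104 genes (60.6%) and the 8-cell stage for 21 (20.2%). Over all genes tested these shares were 19.2% and 10.2%. Oocytes held the highest mean of 3 genes, or 2.88% against 13.5% of all genes. These were Cox10, Ndufa10 and Ndufaf2.

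**Figure D2:**
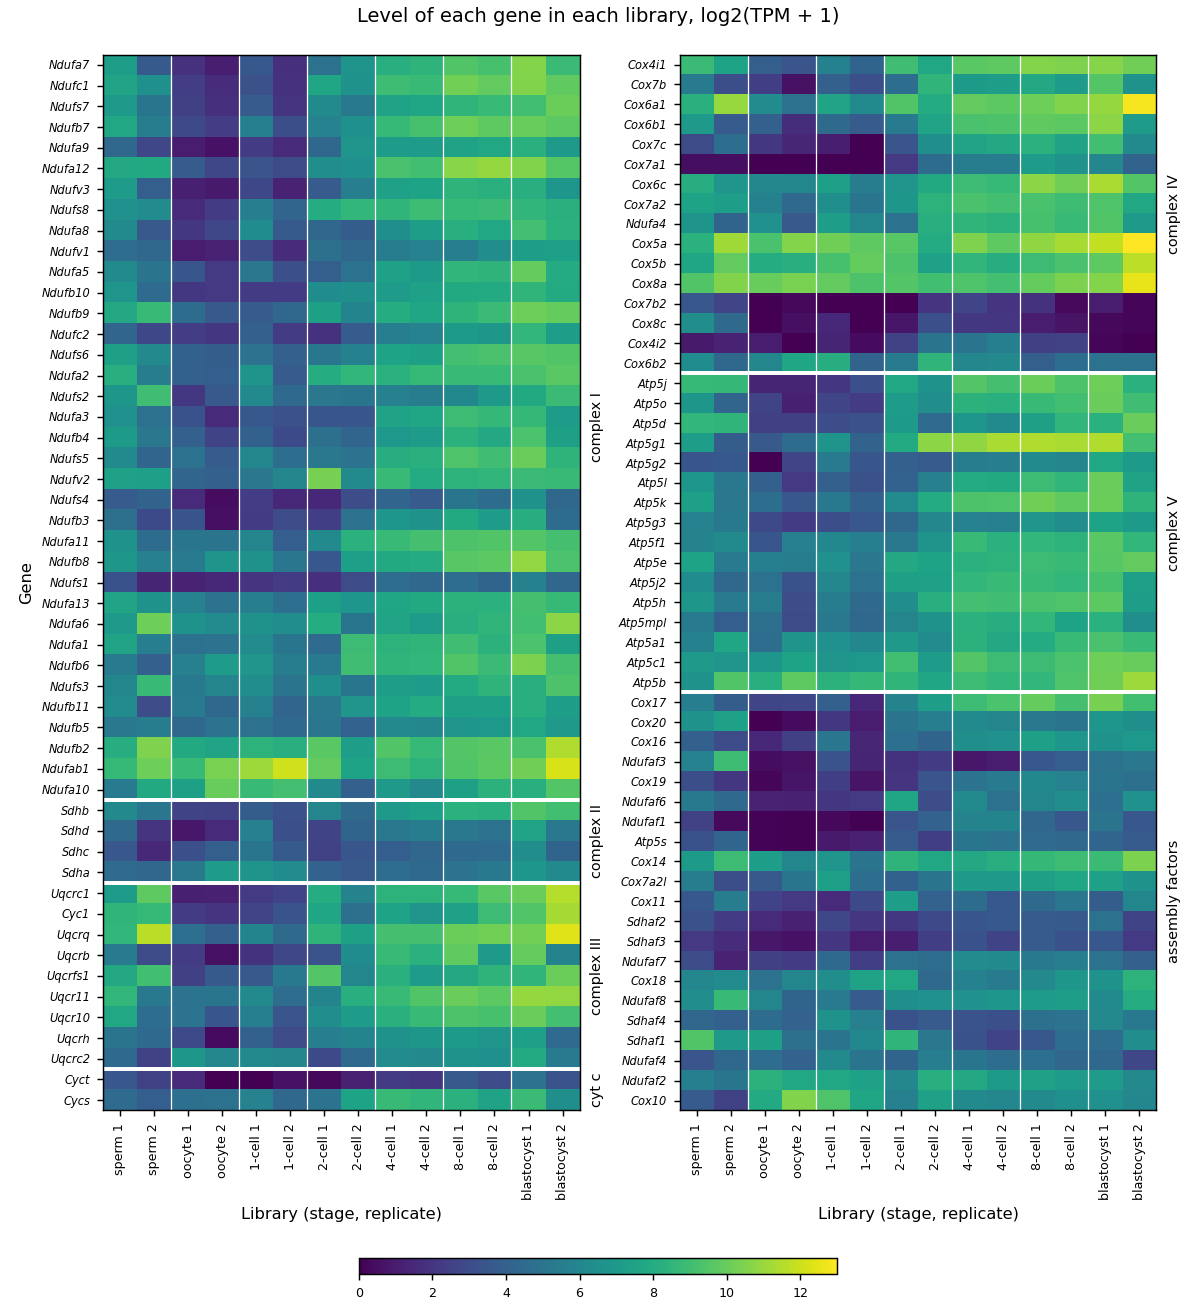
Level of each oxidative phosphorylation gene with a merged transcript as log2(TPM + 1), with 1 row per gene grouped by complex and 1 column per library from sperm to blastocyst. Most rows are low in oocytes and at the 1-cell stage and high from the 4-cell stage on, while rows such as Cox8a, Cox5a and Ndufab1 are already high in oocytes.

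Complex I begins with the flavoprotein module that accepts electrons from NADH. Ndufv1, which carries the flavin, stood at 1.05 and 1.38 TPM in oocytes, 7.42 and 2.18 TPM at the 1-cell stage, 26.9 and 20.2 TPM at the 2-cell stage, 44.1 and 53.3 TPM at the 4-cell stage, 45.7 and 83.1 TPM at the 8-cell stage, and 148 and 161 TPM in blastocysts. It rose by 6.14 ± 0.69 (SE, n = 2 libraries a stage) on the log2 scale from oocyte to blastocyst, with a limma adjusted p of 1.24e-05. Its libraries were higher at each stage than at the one before, apart from an overlap of the 4-cell and 8-cell stages. Ndufs1, the large iron-sulfur subunit next to it, stayed at 1.36 to 7.05 TPM in the 6 libraries up to the 2-cell stage. It was at 24.4 and 19.3 TPM at the 4-cell stage, 24.3 and 17.1 TPM at the 8-cell stage, and 51.0 and 18.6 TPM in blastocysts, and its 2-cell and 4-cell libraries did not overlap.

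Ndufs7, which carries the last iron-sulfur cluster before ubiquinone, went from 4.52 and 2.43 TPM in oocytes to 70.0 and 36.8 TPM at the 2-cell stage and 527 and 1063 TPM in blastocysts. Its oocyte to blastocyst change was 7.43 ± 0.76 on the log2 scale (limma adjusted p = 6.59e-06). All 7 nuclear core subunits of complex I rose between these stages, by 3.22 to 7.43 on the log2 scale, as did 27 of the 29 accessory subunits. Among the accessory subunits, Ndufa7 stood at 2.57 and 1.12 TPM in oocytes and at 1520.4 and 464 TPM in blastocysts, a rise of 8.26 ± 0.86 (limma adjusted p = 7.57e-06). Ndufc1, a small membrane-arm subunit, was at 4.16 and 2.18 TPM in oocytes, 8.46 and 2.56 TPM at the 1-cell stage, 208 and 101 TPM at the 2-cell stage, 499 and 451 TPM at the 4-cell stage, 1192 and 941 TPM at the 8-cell stage, and 1478 and 916 TPM in blastocysts. Both its 2-cell libraries lay far above the 1-cell libraries, and its 8-cell and blastocyst libraries overlapped.

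The 2 complex I subunits not called higher in blastocysts were Ndufab1 and Ndufa10. Ndufab1, the mitochondrial acyl carrier protein, which also serves fatty acid and lipoate synthesis, stood at 453 and 1350.2 TPM in oocytes, 2169 and 4329.8 TPM at the 1-cell stage, 949 and 188 TPM at the 2-cell stage, 475 and 342 TPM at the 4-cell stage, 713 and 844 TPM at the 8-cell stage, and 1174 and 4800.1 TPM in blastocysts. Each 1-cell and blastocyst library was above each library from the 2-cell to the 8-cell stage. Ndufa10, an accessory subunit of the membrane arm, was at 164 and 1017 TPM in oocytes, 447 and 558 TPM at the 1-cell stage, 73.8 and 14.8 TPM at the 2-cell stage, and 281 and 732 TPM in blastocysts. Its oocyte and blastocyst libraries overlapped, with a change of 0.15 ± 0.98 on the log2 scale.

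Complex II, succinate dehydrogenase, works in the citric acid cycle as well as in electron transport. Sdha, its catalytic flavoprotein, was at 36.5 and 145 TPM in oocytes, 106 and 75.5 TPM at the 1-cell stage, 16.0 and 11.6 TPM at the 2-cell stage, 23.8 and 20.5 TPM at the 4-cell stage, 29.6 and 36.9 TPM at the 8-cell stage, and 112 and 72.5 TPM in blastocysts. Its change from oocyte to blastocyst was 0.30 ± 0.74 on the log2 scale and was not called. Sdhb, the iron-sulfur subunit bound to it, was at 5.39 and 4.84 TPM in oocytes, 13.3 and 8.24 TPM at the 1-cell stage, 60.3 and 21.6 TPM at the 2-cell stage, 127 and 159 TPM at the 4-cell stage, 314 and 282 TPM at the 8-cell stage, and 711 and 535 TPM in blastocysts. Sdhb rose by 6.66 on the log2 scale, and its libraries never overlapped between one stage and the next. In oocytes every Sdha library was above every Sdhb library, and in blastocysts every Sdhb library was above every Sdha library.

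Complex III passes electrons from ubiquinol to cytochrome c, and Uqcrc1, Cyc1 and Uqcrfs1 were all low in oocytes. Uqcrc1, a core subunit of the matrix side, stood at 1.21 and 1.33 TPM in oocytes, 3.65 and 5.18 TPM at the 1-cell stage, 267 and 54.4 TPM at the 2-cell stage, 339 and 339 TPM at the 4-cell stage, 422 and 804 TPM at the 8-cell stage, and 1034 and 2996 TPM in blastocysts. With 9.60 ± 0.83 on the log2 scale (limma adjusted p = 3.14e-06) its rise from oocyte to blastocyst was the largest fitted change among the 104 genes. Cyc1, the cytochrome c1 subunit, went from 3.80 and 2.90 TPM in oocytes to 204 and 26.7 TPM at the 2-cell stage and 719 and 2411 TPM in blastocysts, a rise of 8.25 ± 0.95 (limma adjusted p = 1.47e-05). Uqcrfs1, the Rieske iron-sulfur protein, was at 4.47 and 11.9 TPM in oocytes, 11.5 and 37.6 TPM at the 1-cell stage, 746 and 62.4 TPM at the 2-cell stage, 303 and 139 TPM at the 4-cell stage, and 364 and 1092 TPM in blastocysts. All 3 had a first 2-cell library several times above the second, so their level at that stage is known only within a wide range.

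Uqcrc2, the partner of Uqcrc1 in the core of complex III, was the member of this complex that was not called higher in blastocysts. It stood at 117 and 64.8 TPM in oocytes, 69.0 and 59.9 TPM at the 1-cell stage, 6.19 and 20.8 TPM at the 2-cell stage, 77.5 and 68.8 TPM at the 4-cell stage, 103 and 90.9 TPM at the 8-cell stage, and 249 and 40.0 TPM in blastocysts. In oocytes the partners differed, with Uqcrc2 above Uqcrc1 in both libraries, and in blastocysts Uqcrc1 was above Uqcrc2 in both. Uqcrq, a small subunit with the highest mean level of complex III over the 14 libraries, was at 25.9 and 14.6 TPM in oocytes and at 1187 and 5351 TPM in blastocysts.

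Complex IV held genes at both ends of the range. Cox8a and Cox5a, small accessory subunits of wide expression, were already abundant in oocytes. Cox8a stood at 1008 and 1349.9 TPM in oocytes, 946 and 667 TPM at the 1-cell stage, 729 and 535 TPM at the 2-cell stage, 696 and 562 TPM at the 4-cell stage, 985 and 1392 TPM at the 8-cell stage, and 1551 and 6023 TPM in blastocysts. Its change of 1.39 ± 0.83 from oocyte to blastocyst was not called. Cox5a stood at 619 and 1541 TPM in oocytes and 3617 and 10912 TPM in blastocysts, a rise of 2.68 ± 0.90 on the log2 scale (limma adjusted p = 0.0217) that was not called without the first oocyte library, without the second blastocyst library or on the 4 libraries of these stages alone. Cox4i1, a subunit that helps set the activity of the enzyme, was by contrast at 14.1 and 9.94 TPM in oocytes, 51.2 and 17.2 TPM at the 1-cell stage, 516 and 217 TPM at the 2-cell stage, 816 and 891 TPM at the 4-cell stage, 1549 and 1442 TPM at the 8-cell stage, and 1590.3 and 1163 TPM in blastocysts. Subunits of one complex thus ranged in oocytes from listed at 0, as for the restricted copy Cox7a1, to over 1000 TPM per gene. Over the 16 complex IV genes the standard deviation of log2(TPM + 1) was 3.29 and 3.67 in the oocyte libraries and 4.08 and 4.47 in the blastocyst libraries. These genes include restricted copies that were low in blastocysts, such as Cox4i2, Cox7b2 and Cox8c. The spread of the widely expressed subunits alone was not computed.

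In complex V the levels of the subunits drew closer together. Over its 16 genes the standard deviation of log2(TPM + 1) was 2.02 and 2.40 in oocytes and 1.03 and 1.32 in blastocysts. Atp5b, the catalytic beta subunit of the F1 head, was at 293 and 868 TPM in oocytes and 1140.4 and 2221 TPM in blastocysts, and its change of 1.66 ± 0.80 was not called. Atp5a1, the alpha subunit that alternates with it in the head, was at 23.9 and 106 TPM in oocytes and 612 and 453 TPM in blastocysts, a rise of 3.35 ± 0.80 on the log2 scale (limma adjusted p = 0.00286). Atp5j, a subunit of the peripheral stalk also called coupling factor 6, was at 1.59 and 1.51 TPM in oocytes, 3.13 and 7.89 TPM at the 1-cell stage, 211 and 99.1 TPM at the 2-cell stage, 724 and 569.8 TPM at the 4-cell stage, 1095 and 652 TPM at the 8-cell stage, and 1127 and 313 TPM in blastocysts. Its blastocyst libraries lay on either side of the 4-cell and 8-cell libraries. Complex I drew closer as well, with 2.01 and 2.51 in oocytes against 1.16 and 1.76 in blastocysts. In complex III the values were 1.84 and 2.00 in oocytes and 1.19 and 2.97 in blastocysts, so that the blastocyst libraries lay on either side of the oocyte libraries.

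A few genes carried most of the oocyte level. By the mean of both libraries, Cox8a, Cox5a and Ndufab1 made up 39.3% of the summed TPM of the 104 genes in oocytes. With Cox10 and Ndufa10 the share was 57.4%. In each single oocyte library its own 3 most abundant genes, which need not be those named, held 36.2% and 42.3%. Its own 5 most abundant held 47.0% and 65.2%. At the 1-cell stage Ndufab1 alone made up 30.2% (19.6% and 41.5% in the single libraries). The 10 most abundant genes of a stage held 75.9% of the sum in oocytes, 32.0% in 4-cell embryos, 34.9% in 8-cell embryos and 42.7% in blastocysts. In each single blastocyst library its own 10 most abundant genes held 31.9% and 59.8%. Genes at 100 TPM or more numbered 13 and 15 of 104 in the oocyte libraries, 34 and 40 at the 2-cell stage, 68 in each 4-cell library, 76 in each 8-cell library, and 80 and 70 in blastocysts.

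From oocyte to 1-cell embryo, the interval of fertilization, no oxidative phosphorylation gene was called in either direction by limma, against 0.33% of all genes called higher and 0.05% called lower, and 8 of the 104 (7.69%) had an unadjusted p under 0.05, near the 9.21% of all genes. The fit on only the 4 libraries of these stages called 1 of 96 genes higher, against 86 higher and 12 lower of all 7713 genes in that fit. The libraries of the 2 stages did not overlap, with the 1-cell stage higher, in 34 of the 104 genes against 28.6% of all genes, and with it lower in 2 against 9.02%. The median change was 0.75 on the log2 scale and 0.23 over all genes.

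Between the 1-cell and 2-cell stages, the interval of genome activation in the mouse, 31 of 104 genes were called higher and 5 lower, where 26.1% of all genes were called higher and 6.2% lower. The share called higher was thus close to that of all genes. Those called higher were 12 complex I subunits, 4 of complex III, 4 of complex IV, 5 of complex V and 6 assembly factors. The largest rises with no overlap between libraries were those of Ndufc1 (4.65 ± 0.74 on the log2 scale, limma adjusted p = 0.000482), Atp5j (4.59 ± 0.79, adjusted p = 0.000765) and Uqcrc1 (4.51 ± 0.83, adjusted p = 0.00126). The genes that fell were Ndufa10 by 3.86, Ndufab1 by 2.86, Sdha by 2.63, the complex II assembly factor Sdhaf4 by 2.62 and Uqcrc2 by 2.38, all on the log2 scale. The libraries of the 2 stages did not overlap, with the 2-cell stage higher, in 54 of the 104 genes against 42.7% of all genes, and with it lower in 8 against 15.4%.

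The calls at this step depended on single libraries and on how the spread was estimated. Weighting each stage by its own spread left 14 genes higher (13.5%, against 13.7% of all genes) and 0 lower (1.60% of all genes). Without the second 1-cell library the median change was 0.95 on the log2 scale, against 0.54 over all genes. Without the first 1-cell library it was 1.95 against 0.94. The fit on the 4 libraries of these stages gave 20 higher (19.6% against 19.9%) and 1 lower, against 225 lower of all 9319 genes in that fit. Quantile normalization, which moved the median of all genes from 0.72 to -0.12, gave 19 higher (18.3% against 15.9%) and 8 lower, and turned the split over all genes from 2607 higher and 620 lower to 1592 and 1761. The rises called under each alternative were those of Ndufc1, Atp5j, Uqcrc1, Ndufs8, Ndufa9, Ndufaf1, Ndufa12, Ndufb10, Atp5o and Cox20, 10 of the 31, while none of the 5 falls was.

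From the 2-cell to the 4-cell stage the median change was 1.48 on the log2 scale against 0.04 over all genes, and the libraries did not overlap, with the 4-cell stage higher, in 73 of 104 genes against 30.7% of all genes, and with it lower in 2 against 22.1%. Calls were few at this step, with 2 genes higher and 0 lower in limma against 1.49% and 1.75% of all genes, while 38 of the 104 (36.5%) had an unadjusted p under 0.05 against 24.5% of all genes. Ndufa3, an accessory subunit of complex I, went from 10.3 and 10.1 TPM to 181 and 199 TPM, a rise of 4.09 ± 0.75 on the log2 scale (limma adjusted p = 0.0210). Ndufs5, another accessory subunit, went from 36.5 and 29.5 TPM to 277 and 308 TPM, a rise of 3.11 ± 0.77 (limma adjusted p = 0.0452). The count rested on which 2-cell library was used, with 31 genes higher and 2 lower without the second 2-cell library, against 10.9% and 6.39% of all genes, and 6 higher and 0 lower without the first, against 3.08% and 13.5%. With either 4-cell library left out 0 were called, as over all genes. Quantile normalization gave 16 genes higher against 6.09% of all genes.

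At the last 2 steps limma called none of the genes in either direction. From the 4-cell to the 8-cell stage 0.77% of all genes were called higher and 0.92% lower, the median change was 0.58 against -0.34 over all genes, and 68 of the 104 genes had no overlap with the 8-cell stage higher, against 22.9% of all genes, while 11 had none with it lower, against 47.3%. In the 4-cell and 8-cell stages replicates were closest, and fits that used the spread of these stages called more, with 27 genes higher and 5 lower on the 4 libraries alone, against 11.0% and 27.0% of all genes, and 21 higher and 6 lower with each stage weighted by its own spread, against 11.0% and 28.2%. In the fit over all stages 6 of the 104 (5.77%) had an unadjusted p under 0.05, below the 15.7% of all genes. From the 8-cell stage to the blastocyst 1.51% of all genes were called higher and 1.49% lower, and the median change was 0.37 against -0.14. Without the first blastocyst library that median was -0.15 against -0.30. No overlap with blastocysts higher was seen in 34 of the 104 genes against 19.7% of all genes, and with blastocysts lower in 9 against 28.1%, and 5 (4.81%) had an unadjusted p under 0.05, below the 14.4% of all genes. The fit on the 4 libraries of these stages called 0 of 103 genes higher and 1 lower, against 116 higher and 166 lower of all 8816 genes in that fit.

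**Figure D3:**
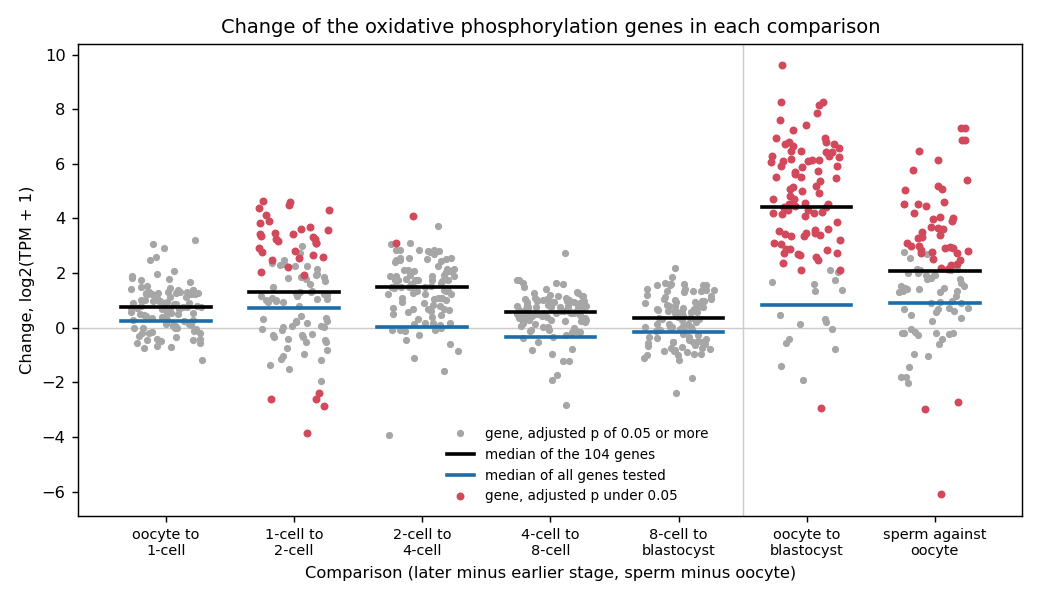
Change of each of the 104 genes in each comparison, as the fitted difference in log2(TPM + 1) with 1 point per gene, red where limma called it and grey where not, and with lines at the median of the 104 genes (black) and of all genes tested (blue). From oocyte to blastocyst 86 genes were called higher and 1 lower, from the 1-cell to the 2-cell stage 31 and 5, and at the other steps between consecutive stages 2 or fewer. In sperm against oocyte 44 were called higher and 3 lower.

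Several subunits come as a widely expressed gene and a copy known from germ cells or from heart and muscle, and 17 of the 20 genes in a list of such copies and their partners had a transcript. Cytochrome c, the soluble carrier between complexes III and IV, has the somatic gene Cycs and the testis gene Cyct. Cycs stood at 25.7 and 28.6 TPM in oocytes, 53.8 and 19.3 TPM at the 1-cell stage, 29.8 and 182 TPM at the 2-cell stage, 447 and 372 TPM at the 4-cell stage, 318 and 179 TPM at the 8-cell stage, and 462 and 86.7 TPM in blastocysts. Cyct was at 1.94 TPM and listed at 0 in the oocyte libraries, at most 1.30 TPM in each 1-cell and 2-cell library, and at 3.88 and 3.21 TPM at the 4-cell stage, 11.6 and 7.12 TPM at the 8-cell stage, and 29.6 and 9.28 TPM in blastocysts. Cyct rose from oocyte to blastocyst by 3.37 ± 0.71 on the log2 scale (limma adjusted p = 0.00122) and Cycs by 2.84 ± 0.96 (adjusted p = 0.0224), and Cycs stayed above Cyct in each of the 14 libraries. The call of Cycs was lost without either oocyte library, without the first blastocyst library and under quantile normalization. In the sperm libraries Cycs was at 22.1 and 13.7 TPM and Cyct at 10.6 and 4.95 TPM.

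The sequences before the starts of 3 such pairs are shown so that the widely expressed gene can be compared with its restricted partner. They are RefSeq windows of GRCm38.p6, 300 bases each, from 250 bases before to 50 bases after the annotated start, and the capitals mark the motifs found in them. The 4 motifs searched on both strands were the NRF1 motif GCGCATGC, the ETS core CCGGAAG, the YY1 motif AAGATGGC and the cyclic AMP response element TGACGTCA. These letters do not overlap each other within the windows printed.
Cycs (chr6:50566520-50566819, minus strand): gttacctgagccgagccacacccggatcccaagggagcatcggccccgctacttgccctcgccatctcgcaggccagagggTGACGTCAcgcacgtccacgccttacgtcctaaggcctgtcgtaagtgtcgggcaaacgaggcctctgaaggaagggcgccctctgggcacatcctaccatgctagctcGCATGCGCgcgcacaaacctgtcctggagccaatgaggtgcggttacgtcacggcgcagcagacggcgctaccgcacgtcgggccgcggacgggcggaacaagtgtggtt
Cyct (chr2:76360404-76360703, minus strand): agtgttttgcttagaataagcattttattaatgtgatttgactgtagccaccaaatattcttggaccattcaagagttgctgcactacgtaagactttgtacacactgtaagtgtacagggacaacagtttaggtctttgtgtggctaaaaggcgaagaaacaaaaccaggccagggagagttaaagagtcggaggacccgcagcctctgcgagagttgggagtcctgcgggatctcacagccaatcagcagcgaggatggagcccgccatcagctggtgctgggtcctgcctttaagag
Cox6b1 (chr7:30626065-30626364, minus strand): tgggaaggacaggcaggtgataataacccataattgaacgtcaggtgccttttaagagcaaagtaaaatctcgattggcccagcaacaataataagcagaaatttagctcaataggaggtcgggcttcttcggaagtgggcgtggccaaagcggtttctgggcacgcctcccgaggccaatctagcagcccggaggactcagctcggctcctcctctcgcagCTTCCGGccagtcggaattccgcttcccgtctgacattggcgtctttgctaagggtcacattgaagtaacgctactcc
Cox6b2 (chr7:4753045-4753344, minus strand): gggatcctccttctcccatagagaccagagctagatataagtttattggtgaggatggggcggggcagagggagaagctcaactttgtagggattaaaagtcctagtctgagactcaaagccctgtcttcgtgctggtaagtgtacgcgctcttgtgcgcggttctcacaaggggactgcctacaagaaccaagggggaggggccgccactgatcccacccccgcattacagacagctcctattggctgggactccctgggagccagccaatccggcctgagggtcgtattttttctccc
Cox7a2 (chr9:79759804-79760103, minus strand): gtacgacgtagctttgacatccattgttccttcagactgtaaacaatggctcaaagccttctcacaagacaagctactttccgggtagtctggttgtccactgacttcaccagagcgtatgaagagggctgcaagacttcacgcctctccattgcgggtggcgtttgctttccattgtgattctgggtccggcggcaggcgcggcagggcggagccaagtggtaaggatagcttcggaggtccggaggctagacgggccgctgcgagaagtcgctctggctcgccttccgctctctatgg
Cox7a1 (chr7:30183921-30184220, plus strand): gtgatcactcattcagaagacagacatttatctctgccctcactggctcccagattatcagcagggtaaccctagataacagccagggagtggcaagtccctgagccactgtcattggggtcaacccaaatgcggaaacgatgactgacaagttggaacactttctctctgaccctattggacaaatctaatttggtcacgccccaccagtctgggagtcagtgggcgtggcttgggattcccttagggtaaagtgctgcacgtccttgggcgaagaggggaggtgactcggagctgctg

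In the window of Cycs a cyclic AMP response element began 169 bases and an NRF1 motif 60 bases before the start, and in that of Cox6b1 an ETS core began 28 bases before it. None of the 4 motifs was found in the windows of Cyct, Cox6b2, Cox7a2 and Cox7a1. CpG dinucleotides numbered 32 in the window of Cycs and 8 in that of Cyct, 17 in Cox6b1 and 10 in Cox6b2, and 20 in Cox7a2 and 7 in Cox7a1. In these 3 pairs the widely expressed gene had the higher number, while Cox7b had 5 and its restricted partner Cox7b2 had 10. Among the 87 of the 109 symbols with a window, 14.9% held the NRF1 motif, 29.9% the ETS core, 13.8% the YY1 motif and 5.75% the cyclic AMP response element. Over the 8086 genes with a merged transcript and a window these shares were 6.11%, 20.2%, 5.23% and 3.45%, and over 27025 genes with a window they were 3.05%, 9.93%, 3.19% and 2.03%. A motif match describes the letters in the window only. For 68 of 84 genes with both a window and a transcript, at least 1 merged transcript began within 50 bases of an annotated start. Other transcripts of the same gene can begin farther away.

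In complex IV the pair Cox6b1 and Cox6b2 crossed over. Cox6b2, a copy known from testis, stood at 62.5 and 197 TPM in oocytes, 271 and 16.9 TPM at the 1-cell stage, 38.5 and 366 TPM at the 2-cell stage, 64.2 and 68.1 TPM at the 4-cell stage, 14.4 and 24.9 TPM at the 8-cell stage, and 28.2 and 28.8 TPM in blastocysts. Cox6b1, the widely expressed gene, was at 14.8 and 2.30 TPM in oocytes, 21.6 and 12.5 TPM at the 1-cell stage, 40.3 and 195 TPM at the 2-cell stage, 613 and 651 TPM at the 4-cell stage, 922 and 854 TPM at the 8-cell stage, and 1722 and 146 TPM in blastocysts. The germline copy was the higher of the pair in both oocyte and both 1-cell libraries, and the widely expressed gene was the higher in each library from the 4-cell stage on. Cox6b1 rose by 6.12 ± 1.11 on the log2 scale from oocyte to blastocyst (limma adjusted p = 0.000415), while Cox6b2 changed by -1.93 ± 1.18 and was not called.

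Cox7a1, the heart and muscle copy of subunit 7a, was listed at 0 in both oocyte and both 1-cell libraries, and stood at 3.41 and 22.9 TPM at the 2-cell stage, 44.6 and 44.8 TPM at the 4-cell stage, 142 and 103 TPM at the 8-cell stage, and 63.1 and 16.7 TPM in blastocysts. It was highest at the 8-cell stage, and its partner Cox7a2 stayed above it in each library, at 616 and 497 TPM at the 8-cell stage and 51.5 and 20.6 TPM in oocytes. Cox4i2, the copy of subunit 4 known from lung, was at 0.996 TPM and listed at 0 in oocytes, 1.53 and 0.316 TPM at the 1-cell stage, 4.84 and 31.3 TPM at the 2-cell stage, 31.2 and 47.8 TPM at the 4-cell stage, 4.48 and 4.78 TPM at the 8-cell stage, and 0.144 TPM and listed at 0 in blastocysts. Its 4-cell libraries were above both 8-cell libraries, and its rise from the 1-cell to the 2-cell stage (2.91 ± 0.77 on the log2 scale, limma adjusted p = 0.0106) was not called without the second 1-cell library, under quantile normalization or with each stage weighted by its own spread. Cox7b2 and Cox8c, testis copies, did not exceed 8.06 TPM in any oocyte or embryo library, while their partners Cox7b and Cox8a reached 736 and 6023 TPM. In sperm Cox8c was at 86.3 and 21.3 TPM and Cox7b2 at 10.4 and 5.52 TPM.

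Subunit c, which forms the rotating ring of complex V, is made from 3 genes whose mature proteins are the same. Atp5g1 went from 11.6 and 23.3 TPM in oocytes to 1843 and 2651 TPM at the 4-cell stage, 2754 and 2598 TPM at the 8-cell stage, and 2816 and 560.0 TPM in blastocysts, which made it the highest of complex V by its mean over the 14 libraries. Atp5g2 was at 213 and 137 TPM in blastocysts and Atp5g3 at 187 and 133 TPM. All 3 were called higher in blastocysts than in oocytes, by 6.17 ± 1.09, 6.07 ± 0.88 and 4.73 ± 0.71 on the log2 scale. Ndufa4, once counted with complex I and now known as a subunit of complex IV, rose by 3.11 ± 1.18 (limma adjusted p = 0.0377), and its call was lost without the second oocyte library, without the first blastocyst library, without a filter on low values and under quantile normalization.

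**Figure D4:**
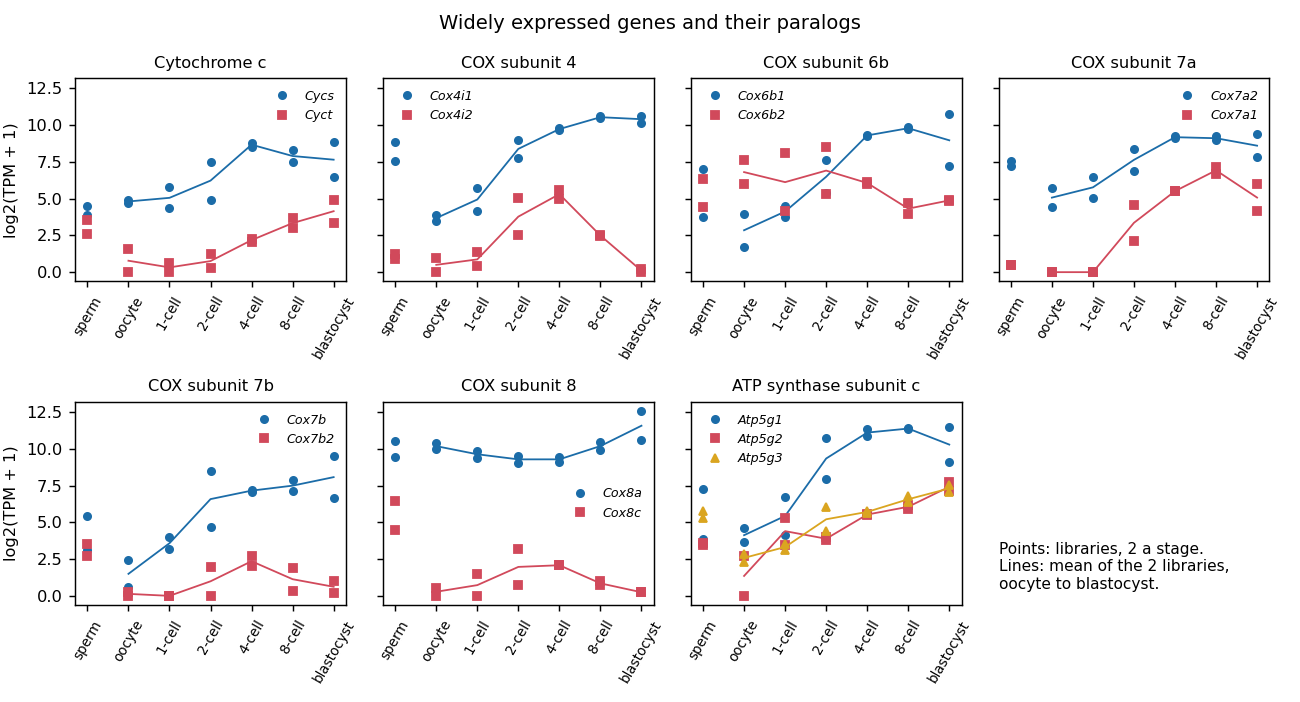
Level as log2(TPM + 1) of widely expressed subunit genes and their restricted partners by stage, with 1 point per library and lines through the mean of the 2 log2 values of a stage. Cox6b2 lies above Cox6b1 in oocytes and at the 1-cell stage and below it from the 4-cell stage on, and Cycs stays above Cyct in each library.

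The summed level of the assembly factors was 1060.2 and 1942 TPM in oocytes and 2877 and 3367 TPM in blastocysts, and their median change was 2.50 on the log2 scale beside 4.42 over the 104 genes. Cox10, which makes heme O, the precursor of the heme A of complex IV, was the one member called lower in blastocysts. It stood at 245 and 1478 TPM in oocytes, 675 and 200.2 TPM at the 1-cell stage, 49.7 and 175 TPM at the 2-cell stage, and between 64.3 and 95.4 TPM in the 6 libraries from the 4-cell stage on. The fall was 2.92 ± 0.94 on the log2 scale (limma adjusted p = 0.0168), and it was not called without the second oocyte library or without the second blastocyst library. Ndufaf2, an assembly factor of complex I, was at 325 and 212 TPM in oocytes and 141 and 68.6 TPM in blastocysts. Ndufaf1, which acts at the membrane arm of complex I, was by contrast at most 0.204 TPM in each oocyte and 1-cell library, and at 9.73 and 15.8 TPM at the 2-cell stage and 55.9 and 57.3 TPM at the 4-cell stage.

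In sperm 44 of the 104 genes were called higher than in oocytes and 3 lower by limma over the 14 libraries, where 36.2% of 10740 genes were called higher and 17.4% lower. The median difference, sperm minus oocyte, was 2.06 on the log2 scale against 0.90 over all genes. The libraries did not overlap, with sperm higher, in 67 of the 104 genes against 49.4% of all genes, and with sperm lower in 6 against 26.3%. The sperm libraries also held the leukocyte, epididymal and red blood cell transcripts given above, and their part in these differences was not tested. Atp5j was at 411 and 401 TPM in sperm, 7.32 ± 0.82 above oocytes on the log2 scale (limma adjusted p = 3.14e-06). Uqcrc1 was at 142 and 882 TPM, 7.29 ± 0.97 above oocytes (adjusted p = 1.53e-05), and Ndufaf3, a complex I assembly factor, at 52.5 and 506 TPM, 6.86 ± 0.92 above (adjusted p = 1.65e-05). Cox10 was at 12.2 and 4.94 TPM, 6.09 lower on the log2 scale in sperm, and Uqcrc2 and Ndufaf2 were lower by 2.98 and 2.71. Of the testis copies, Cox8c was 5.18 ± 0.81 above oocytes (adjusted p = 6.54e-05), Cox7b2 2.97 ± 0.70 (adjusted p = 0.00188) and Cyct 2.28 ± 0.75 (adjusted p = 0.0164), while Cox6b2, at 78.5 and 20.3 TPM in sperm against 62.5 and 197 TPM in oocytes, was not called. The call of Cyct was lost without the first sperm library, without the second oocyte library, under quantile normalization and with each stage weighted by its own spread. Of the calls, 26 of the 44 higher and 1 of the 3 lower, that of Cox10, held under each alternative, and without the second oocyte library 29 genes were called higher, against 30.1% of all genes. Quantile normalization, which moved the median of all genes from 0.90 to -0.01, gave 31 higher and 5 lower, and over all genes 2857 higher and 2877 lower in place of 3893 and 1865.

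The merged transcriptome held 203 transcripts of these genes among 22612, of which 132 had an annotated chain of introns and 66 another chain. More than 1 transcript was found for 53 genes, and 51 had 1. The genes are short, with a median length of 712.5 bases for the longest transcript against 1476 over all genes with a transcript, and 65.4% were under 1000 bases against 26.4%. Transcripts with other chains took 2.44% to 9.90% of the summed TPM in a library. In 12 genes the most abundant transcript differed between stages in both libraries, namely Atp5g1, Atp5h, Atp5j, Cox10, Cox16, Cox18, Ndufa3, Ndufa9, Ndufaf1, Ndufaf6, Ndufs1 and Ndufs8.

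Ndufs8, an iron-sulfur core subunit of complex I on chromosome 19, had 2 main transcripts of 989 and 791 bases. They began 45 bases apart, shared 5 of 6 introns, and had overlapping first exons of 271 and 73 bases that ended at different sites. The longer one took 84.8% and 78.8% of the TPM of the gene at the 2-cell stage. The shorter one took 60.1% and 58.9% in 4-cell embryos, 84.6% and 77.8% in 8-cell embryos, and 88.2% and 58.7% in blastocysts. The 2-cell libraries were thus on the other side of an even split from the libraries of later stages. Replicates also differed, as the shorter one took 84.3% and 19.4% in the sperm libraries and 0% and 46.3% in the oocyte libraries. At the 1-cell stage it took 31.3% and 25.1%.

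Cox10 had 3 transcripts of 5 exons that began inside the gene on chromosome 11, 27.8, 28.2 and 28.9 kb downstream of its main start, and shared 3 of the 6 introns of the main form. Their chains of introns were found in the oocyte and 1-cell long-read pools and in no other pool. They took 32.6% and 32.4% of the TPM of Cox10 in oocytes, 10.3% and 21.5% in 1-cell embryos, 4.91% and 11.5% in 2-cell embryos, and 2.75% and 2.13% in 4-cell embryos. In blastocysts they were listed at 0 in both libraries. The most abundant Cox10 transcript in sperm and at the 2-cell stage was a single exon of 330 bases. It began 116.5 kb downstream of the main start and lay outside the last exon of the main form. The levels of Cox10 given here include it. Atp5h, a peripheral stalk subunit of complex V, had a main form of 6 exons and 633 bases at 37.8 and 6.23 TPM in oocytes and 454 and 418 TPM at the 4-cell stage. A form of 7 exons and 691 bases took the larger share in sperm, with 52.8% and 92.4%, and 2.65% and 10.3% in blastocysts. Its chain of introns was found in the 8-cell and blastocyst long-read pools and not in the sperm pool, which held the form of 6 exons.

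**Figure D5:**
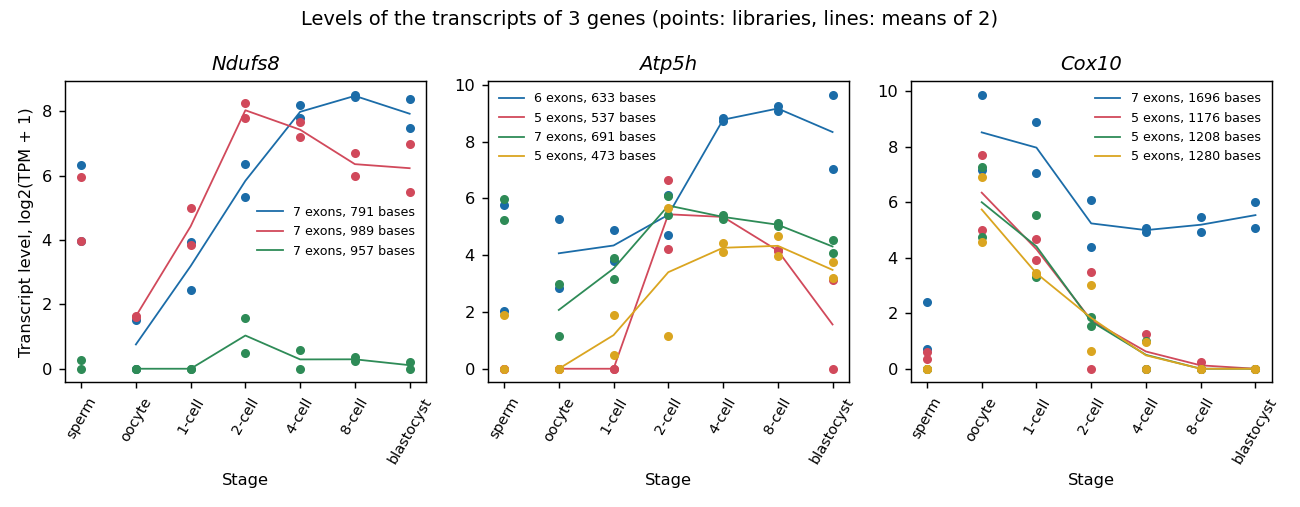
Level as log2(TPM + 1) of the transcripts of Ndufs8, Atp5h and Cox10 by stage, with 1 point per library and lines through the mean of the 2 log2 values of a stage. The Ndufs8 transcripts of 989 and 791 bases change order between the 2-cell and 4-cell stages, and the 3 internal Cox10 transcripts are highest in oocytes and at the 1-cell stage.

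The long-read pools, 1 per stage and so without replicates, found more of these genes at later stages. By the paper's account they came from the same cDNA as the short-read libraries and are not separate material. The oocyte pool held a transcript of 50 of the 104 genes (48.1%) against 34.3% of all 10922 genes. The 1-cell pool held 62 (59.6%) against 33.9%, the 2-cell pool 69 (66.3%) against 41.8% and the 4-cell pool 77 (74.0%) against 41.0%. The 8-cell pool held 89 (85.6%) against 43.3%, the blastocyst pool 94 (90.4%) against 45.1% and the sperm pool 88 (84.6%) against 49.0%. Transcripts of 28 genes were found in all 7 pools. The blastocyst pool held 47 genes that the oocyte pool did not, and the reverse held for 3, Ndufa1, Ndufab1 and Ndufaf2. Absence from a pool did not mean a low level. Ndufab1 was missing from the blastocyst pool although abundant in both blastocyst short-read libraries. Cox5a was missing from the oocyte pool although abundant in both oocyte short-read libraries. The study also reports unequal read numbers between the pools. Of the restricted copies, Cox7b2 and Cox8c were found in the sperm pool only, Cox4i2 in the 2-cell pool only and Cyct in the blastocyst pool only.

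The 2 libraries of a stage often disagreed on single genes. In blastocysts 21 of the 104 genes were over 2-fold higher and 42 over 2-fold lower in the second library, in sperm 20 and 51, and at the 2-cell stage 40 and 25, while at the 4-cell stage the numbers were 0 and 2. The share of all genes beyond 2-fold was not computed. The median difference in log2(TPM + 1), second minus first library, was -0.70 for the 104 genes in blastocysts. Over all genes at 1 TPM or more in either library it was -0.49. These 2 medians were -0.98 and -0.17 in sperm, 0.57 and 1.04 at the 2-cell stage, and -0.085 and -0.079 at the 4-cell stage. In blastocysts the genes higher in the second library had a median GC content of 53.1% and a median length of 1224 bases, and those lower in it 47.9% and 786 bases. Cox6b1 at 1722 and 146 TPM and Cox5a at 3617 and 10912 TPM show the 2 directions. The part of GC content and length in these differences was not tested.

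Lists of related genes outside the rule gave a frame for these values, where 35.4% of all genes tested were called higher and 18.0% lower in blastocysts than in oocytes. Of 28 assembly factors with other symbols, such as those of the Coa, Sco and Uqcc families, 21 were called higher and 0 lower in blastocysts than in oocytes, with a median change of 3.35 on the log2 scale. Of 17 genes of the citric acid cycle and pyruvate dehydrogenase, 11 were called higher and 0 lower. Of 8 ATP and phosphate carriers, channels and the ATPase inhibitor, 7 were called higher and 1 lower, and of 15 genes of mitochondrial biogenesis and mitochondrial DNA expression, 8 were called higher and 0 lower. Of the 13 subunits encoded in mitochondrial DNA, 2 had a merged transcript and 1, mt-Nd5, passed the filter, so that their levels cannot be set beside the nuclear subunits here.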

How the data were processed

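The authors made amplified cDNA by Smart-seq2, sequenced it on PacBio and Illumina instruments, merged the long-read transcripts of all stages on mm10, and deposited, per library, TPM values of the merged transcripts estimated with Salmon. Their processing notes also name Cufflinks, GSNAP and STAR. The TPM values are relative within a library and keep no depth, so no counting interval can be given. Poly(A) priming and amplification can change levels with transcript length and GC content, and reads shared with processed pseudogenes may be split among copies.

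Here merged transcripts were assigned to GENCODE vM21 genes by exon overlap on the same strand (the authors annotated with another release), and TPM was summed per gene. Genes with at least 1 TPM in at least 2 libraries were tested on log2(TPM + 1) with limma 3.58.1 in R 4.3.3 (lmFit, contrasts.fit, eBayes with trend), with 12 libraries in the fit from oocyte to blastocyst and 14 where sperm entered. P-values were adjusted by Benjamini-Hochberg over all genes of a comparison, and an adjusted p under 0.05 was a call. Changes are on the log2(TPM + 1) scale, which understates those of scarce genes. On simulated data the fit recovered most large changes and missed most smaller ones, among them each of the smaller ones from the 4-cell to the 8-cell stage, so few calls there do not show that levels stayed the same. It also called unchanged genes where stages differed in spread, most often from the 1-cell to the 2-cell stage, so a fit weighted by stage is among the alternatives. Tables were handled with Python 3.11.15, numpy 2.4.6 and pandas 2.3.3. Promoter windows came from RefSeq (GRCm38.p6). The deposited tables of transcripts quantified within a single stage were used only for an alternative sum.

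The genes, lists and tests were chosen with earlier results of these data known. Genes named by rule were the paralog list, core or catalytic subunits, the most abundant gene of each complex, the 3 largest rises and falls called in a comparison without overlap, and genes whose leading transcript changed. Sdhaf4 and others beyond that rule were chosen after their values were seen. Groups followed the sample titles. File names of the 8-cell libraries carry the opposite replicate numbers, and the protocol text names DBA/2N where the titles name DBA/2J. Replicate numbers did not pair the samples. The correlations of the replicate differences between stages ran from -0.545 to 0.474.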

Additional observations from a re-analysis of the deposited data

How the results depend on the processing

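Each count of called genes was recomputed with a pseudocount of 0.1, no filter, a filter at 5 TPM, quantile normalization, the 4 libraries of a comparison alone, the spread weighted by stage, transcripts of 1 protein-coding gene only, a replicate block, and without each library. From oocyte to blastocyst the genes called higher ranged from 75 to 80 with 1 library left out, and the single lower call was 0 without the second oocyte or second blastocyst library. For sperm against oocyte, leaving out 1 library gave 29 to 49 higher, and quantile normalization gave 5 lower in place of 3. From the 1-cell to the 2-cell stage, quantile normalization gave 19 higher and 8 lower, the 4 libraries 20 and 1, weighting 14 and 0, no filter 3 lower, and leaving out 1 library 12 to 33 higher and 1 to 5 lower. From the 2-cell to the 4-cell stage, a pseudocount of 0.1 gave 1 higher, quantile normalization 16, the 4 libraries 0, weighting 0, and leaving out 1 library 0 to 31 higher and 0 to 2 lower. From the 4-cell to the 8-cell stage, quantile normalization gave 1 higher, the 4 libraries 27 higher and 5 lower, and weighting 21 and 6. From the 8-cell stage to the blastocyst, the pseudocount of 0.1, the 4 libraries and weighting each gave 1 lower in place of 0. From oocyte to 1-cell the 4 libraries gave 1 higher in place of 0. The cause was not tested. Over named genes, 87 changes took 1040 values, of which 917 stayed on the same side of the threshold in the same direction, 123 lost the call and 0 reversed.

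The replicate numbers are shared between stages without pairing the samples. With the replicate block, 3 genes in place of 5 were lower from the 1-cell to the 2-cell stage and 1 in place of 2 higher from the 2-cell to the 4-cell stage. The other counts with the block stayed within 1.5 times.

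The summed TPM moved beyond the spread between libraries at the 1-cell stage to 12680.8 with transcripts quantified within the stage, at the 4-cell stage to 25840.1 and at the 8-cell stage to 40419.0 with transcripts of 1 protein-coding gene only, and at the 8-cell stage to 41976.5 within the stage. TPM holds no depth, so a gene listed at 0 may be present below an unknown limit.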
